A study of Mus musculus with 8 samples.

Results

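Keratins and neurofilaments are the intermediate filament proteins that line the inside of epithelial cells and of nerve cell axons. The 10 genes described here were *Krt5*, *Krt7*, *Krt8*, *Krt14*, *Krt18* and *Krt19*, which encode keratins of simple and basal epithelium, *Nefl*, *Nefm* and *Nefh*, which encode the light, medium and heavy neurofilament chains, and *Nes*, which encodes nestin, a filament protein of progenitor cells. They were taken by name from the 39089 genes of the deposited tables, and all 10 were found. *Nefl* and *Nefm* were selected on the size of their difference between vehicle-treated tumors of the 2 genotypes, so that comparison is given for every one of the 10 genes as a description, without a test.

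The RNA came from tumors of Myc-CaP, a *Myc*-driven prostate cancer cell line of the mouse, grown under the skin of male FVB mice that were 6 weeks old. WT tumors carried an empty lentiviral CRISPR vector and *Arid1a* KO tumors carried the same vector with a guide RNA against *Arid1a*, which encodes a part of the chromatin remodeler SWI/SNF, so every tumor had been through lentiviral infection and drug selection. From day 16 the hosts were gavaged daily for 2 weeks with JSH-23, which keeps the NF-κB subunit p65 out of the nucleus, or with its corn oil and DMSO vehicle. Each of the 4 groups (WT with vehicle, WT with JSH-23, *Arid1a* KO with vehicle and *Arid1a* KO with JSH-23) held 2 samples of cells sorted as EpCAM-positive and CD45-negative. Whether the KO cells were a clone or a pool, and how tumors were assigned to samples, was not given in the sources used here, so the p-values measure the spread between these pairs only.

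A keratin filament is built from pairs of a type I chain (such as *Krt14*, *Krt18* and *Krt19*) and a type II chain (such as *Krt5*, *Krt7* and *Krt8*). In the prostate, *Krt8* and *Krt18* form the pair of luminal cells and *Krt5* and *Krt14* that of basal cells, while *Krt7* and *Krt19* are found in simple and ductal epithelium. Neurofilaments are built on *Nefl* and joined by *Nefm* and *Nefh*, and are known as markers of neurons.

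Total counts ran from 16401581 to 21972231 per sample, and the floor of 3 counts used below was 0.137 to 0.183 CPM (counts scaled by library size). *Arid1a*, the targeted gene, was at 145 to 163 CPM in the WT samples and at 89.7 to 109 CPM in the *Arid1a* KO samples, with no overlap. The RNA did not show the epithelial marker of the sort. *Epcam* had 0 to 4 counts and *Cdh1*, the gene for E-cadherin, 1 to 19 counts in any sample. Of other genes of luminal prostate cells, *Foxa1* had 2697 to 3873 counts and *Hoxb13* 947 to 1634 counts, whereas *Pbsn*, the probasin gene, had 0 counts in every sample. The WT sample 2 with JSH-23 stood apart from its pair in several low genes, and its values are given beside the results that rest on it.

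The 3 keratins *Krt8*, *Krt7* and *Krt19* made up nearly all of the signal of the 10 genes. On the TPM scale, which divides by gene length and so allows genes to be compared, they had levels between 20.0 and 185 TPM in every sample. In vehicle-treated WT tumors, *Krt8* was at 83.4 and 71.5 TPM, *Krt7* at 71.4 and 74.1 TPM and *Krt19* at 73.0 and 65.5 TPM, so neighbors in this order overlapped. In vehicle-treated *Arid1a* KO tumors *Krt19* stood first at 185 and 183 TPM, before *Krt8* at 158 and 157 TPM and *Krt7* at 114 and 116 TPM, with no overlap. With JSH-23 the order in WT tumors was *Krt8*, *Krt7*, *Krt19* without overlap, and in *Arid1a* KO tumors *Krt19* and *Krt8* overlapped above *Krt7*. The other 7 genes stayed under 2.77 TPM in every sample.

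**Figure D1:**
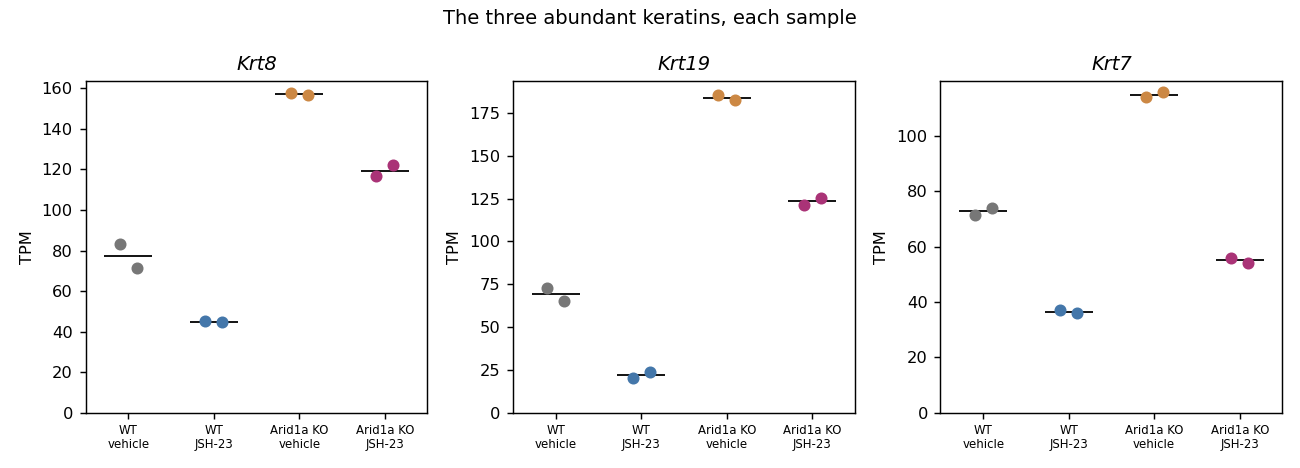
TPM of *Krt8*, *Krt19* and *Krt7* in each of the 8 samples, 2 dots a group, with a line at the mean of the group; the vertical axes start at 0. Each keratin was highest in the vehicle-treated *Arid1a* KO samples (*Krt19* at 185 and 183 TPM) and lowest in the JSH-23-treated WT samples (*Krt19* at 20.0 and 24.0 TPM).

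The luminal pair was uneven. *Krt8* had 540 to 2308 counts per sample, and *Krt18*, the gene of its usual partner, had 4 to 18 counts, or at most 1.499 TPM. The ratio of *Krt8* to *Krt18* TPM was 97.5 and 112 in vehicle-treated WT tumors, 92.3 and 105 in JSH-23-treated WT tumors, 316 and 163 in vehicle-treated *Arid1a* KO tumors and 77.9 and 92.5 in JSH-23-treated *Arid1a* KO tumors. The basal pair was hardly counted: *Krt5* had a single count, in *Arid1a* KO sample 2 with JSH-23, and *Krt14* had 3 to 13 counts per sample. In the samples without a *Krt5* count, 0 counts allow a level of up to 0.150 to 0.183 CPM, and this limit covers counting error only. *Trp63*, which encodes the basal cell factor p63, had 9 to 36 counts per sample.

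*Krt8* and *Krt18* are neighbors on chromosome 15 (mm10), *Krt8* from 101996711 to 102004342 on the minus strand and *Krt18* from 102028216 to 102032026 on the plus strand, with 23873 bases between them. *Krt7* lies from 101412403 to 101427806 and *Krt5* from 101707069 to 101712905 in the same cluster of type II genes, of which *Krt18* is the type I neighbor. *Krt14* (100203162 to 100207510) and *Krt19* (100140810 to 100145926) lie on chromosome 11. Of the 10 genes, 6 had a promoter in the RefSeq table (GRCm38.p6), and those of *Krt8*, *Krt18* and *Krt7* are printed because these neighbors differed widely in level. Shown 5′ to 3′ on the strand of the gene are the bases before its RefSeq start that also lie before its GENCODE coding transcripts, at chr15:102004483-102004592 (minus strand), chr15:102027966-102028179 (plus strand) and chr15:101412153-101412401 (plus strand). Capitals mark GC boxes (GGGCGG on either strand).
Krt8: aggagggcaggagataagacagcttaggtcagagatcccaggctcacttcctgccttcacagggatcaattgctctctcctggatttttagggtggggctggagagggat
Krt18: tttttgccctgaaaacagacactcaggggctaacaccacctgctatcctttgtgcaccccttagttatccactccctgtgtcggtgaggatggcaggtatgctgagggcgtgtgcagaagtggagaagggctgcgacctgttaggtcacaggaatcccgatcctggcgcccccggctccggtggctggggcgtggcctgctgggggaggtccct
Krt7: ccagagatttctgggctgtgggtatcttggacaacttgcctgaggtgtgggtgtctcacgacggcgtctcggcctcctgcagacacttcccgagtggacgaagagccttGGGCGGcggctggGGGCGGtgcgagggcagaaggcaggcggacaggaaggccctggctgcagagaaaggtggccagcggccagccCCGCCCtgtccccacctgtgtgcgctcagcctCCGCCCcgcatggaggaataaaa

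In the full upstream window that was searched, *Krt7* held 4 GC boxes, a motif present in 32.7% of 32851 promoter windows of that length, and *Krt8* and *Krt18* held none. None of the 3 windows held TATAAA (12.4% of windows), CCAAT (33.8%), CACGTG (6.02%), TGANTCA (6.75%) or the kappa-B consensus (3.9%), each searched on both strands. Among the 6 windows searched, the kappa-B consensus matched once, in *Krt14* from position -107 to -98 before the RefSeq start on the opposite strand. That *Krt14* window, chr11:100206031-100206280, lay inside the span of the gene given above, so the match is not upstream of the gene as annotated in the counts. GGGCGG also matched in *Nes*. The GC content was 66.0% for *Krt7*, 58.0% for *Krt8* and 60.4% for *Krt18*. A match describes the letters, and its absence says nothing of a factor. Against the GENCODE transcripts, *Krt7*, *Krt8*, *Krt19* and the 4 neuronal-type genes had no look-alike of at least 85% identity over 50% of their length. *Krt14* had 3 (*Krt16*, *Krt17* and *Krt42*, at 85.4% to 89.4% identity), *Krt5* had 2 (*Krt6a* and *Krt6b*), and *Krt18* had 2 processed pseudogenes (90.5% and 86.5%), which were not analysed here. Where the aligner placed reads that such transcripts share was not tested, so the low counts of *Krt5*, *Krt14* and *Krt18* are less certain.

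The question of the JSH-23 comparisons was what blocking NF-κB changed in the tumors of each genotype. A gene was called where edgeR's quasi-likelihood test gave a Benjamini-Hochberg adjusted p under 0.05 over the 13921 genes tested and a change of at least 1.5-fold. Of the 10 genes, 7 passed the filter on low counts; *Krt5*, *Nefh* and *Nes* did not. *Krt14*, *Krt18*, *Nefl* and *Nefm* passed only through the groups in which they were higher. *Nefl* and *Nefm* get no p in either JSH-23 comparison, since the vehicle samples are those on which they were selected.

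In WT tumors, JSH-23 came with lower levels of each of the 3 abundant keratins. *Krt19* had 691 and 624 counts with vehicle and 207 and 228 with JSH-23, a log2 fold change of -1.62 (standard error, SE, of 0.082, adjusted p = 1.78e-27, edgeR), or 3.07-fold lower. *Krt7* went from 757 and 791 counts to 428 and 382, a log2 fold change of -0.96 (SE 0.068, adjusted p = 5.44e-20, edgeR). *Krt8* went from 1006 and 869 counts to 595 and 540, a log2 fold change of -0.75 (SE 0.062, adjusted p = 4.52e-17, edgeR). For each of these genes both JSH-23 samples lay below both vehicle samples, and sample 2 with JSH-23 sat close to its pair. In sorted bulk cells, fewer cells that make a keratin and less keratin mRNA per cell cannot be told apart. *Krt14* (13 and 10 counts with vehicle, 4 and 5 with JSH-23) was not called and is given no p, since the filter kept it through the vehicle samples. *Krt18* (8 and 6 against 5 and 4) was not called, with adjusted p = 0.447 from edgeR. Thus 3 of the 6 keratins were called, all lower, where 15.8% of all genes tested were called in either direction and 55.8% reached an adjusted p under 0.05 alone. With *Nefl* and *Nefm* the count of called members was 5, but those calls rested on WT sample 2 with JSH-23, and without it the count was 3.

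In *Arid1a* KO tumors, *Krt7* fell with JSH-23 from 1294 and 1498 counts to 762 and 838. Its log2 fold change was -0.82 (SE 0.054, adjusted p = 4.66e-22, edgeR), or 1.77-fold lower. *Krt19* (1876 and 2106 counts against 1475 and 1728) and *Krt8* (2038 and 2308 against 1808 and 2147) passed the adjusted p but not the 1.5-fold change. Their log2 fold changes were -0.34 (SE 0.046, adjusted p = 1.19e-09, edgeR) and -0.16 (SE 0.042, adjusted p = 0.000709, edgeR). An adjusted p under 0.05 alone was reached by 67.8% of all genes in this comparison. For *Krt8* the raw counts of the groups overlapped, and scaled by library size the vehicle samples had 116 and 115 CPM, above the 93.4 and 97.7 CPM of the JSH-23 samples.

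*Krt18* had 5 and 11 counts in vehicle-treated *Arid1a* KO tumors and 18 and 18 with JSH-23. The log2 fold change was 1.14 (SE 0.52). It met both thresholds, but the gene was kept by the filter through these JSH-23 samples, so no p is given and nothing is read from the call. The call was lost under 9 of 11 alternatives, among them DESeq2 and leaving out any 1 of the 4 samples. *Krt14* (3 and 7 counts against 5 and 12) did not pass, with adjusted p = 0.343 from edgeR. In all, 2 of the 10 genes were called with *Krt18*, and 1 without it; the counts are the same with *Nefl* and *Nefm* set aside. The share of all genes called was 26% in either direction, and neither count is read as a result about these genes. Whether JSH-23 changed a keratin more in WT than in *Arid1a* KO tumors was not tested. In this comparison all genes had a median log2 fold change of -0.02, and it was -0.13 without TMM scaling and -0.20 on the TPM scale; *Krt7*, *Krt8* and *Krt19* were lower with JSH-23 under each.

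**Figure D2:**
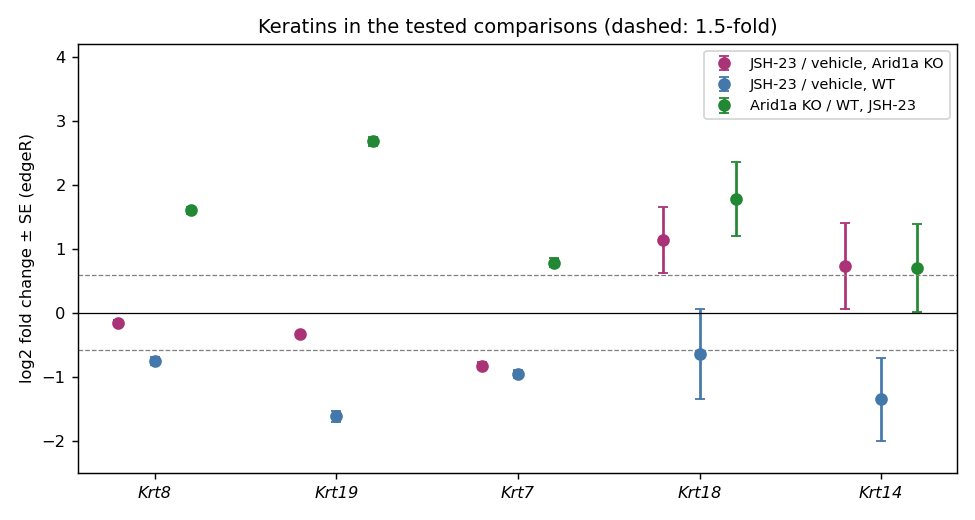
Log2 fold change with its standard error from edgeR for the 5 keratins that passed the filter, in the 3 comparisons that were tested; dashed lines mark 1.5-fold. *Krt8*, *Krt19* and *Krt7* have short error bars, from 0.042 to 0.082, and *Krt18* and *Krt14* long ones, from 0.52 to 0.70.

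The comparison of *Arid1a* KO with WT tumors under JSH-23 used none of the vehicle samples on which *Nefl* and *Nefm* were selected. It shares each of its groups with a comparison above. The 10 genes were chosen with earlier results of these data known, so its values are not independent of that choice. The largest difference among the 10 genes was that of *Krt19*, with 1475 and 1728 counts in *Arid1a* KO against 207 and 228 in WT tumors. Its log2 fold change was 2.68 (SE 0.070, adjusted p = 5e-44, edgeR), or 6.42-fold higher. *Krt8* was 3.04-fold higher (1808 and 2147 counts against 595 and 540), a log2 fold change of 1.60 (SE 0.054, adjusted p = 2.49e-37, edgeR). *Krt7* was 1.72-fold higher (762 and 838 against 428 and 382), a log2 fold change of 0.79 (SE 0.068, adjusted p = 3.7e-16, edgeR). In each case every *Arid1a* KO sample lay above every WT sample.

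*Krt18* had 18 and 18 counts in JSH-23-treated *Arid1a* KO tumors against 5 and 4 in WT tumors. The log2 fold change was 1.78 (SE 0.58), again given with no p, because the filter kept the gene through the *Arid1a* KO samples. It met both thresholds, and did not under 4 of 11 alternatives (DESeq2, and leaving out WT sample 1, WT sample 2 or *Arid1a* KO sample 1). *Krt14* did not pass (5 and 12 counts against 4 and 5, adjusted p = 0.431 from edgeR). In all, 4 of the 10 genes were called with *Krt18* and 3 without it, all of them keratins and all higher, where 8.71% of all genes were called in either direction and 47% reached an adjusted p under 0.05 alone. *Nefl* and *Nefm* were not called, as described with the neurofilaments.

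With vehicle, the same difference between genotypes is given as a description. *Krt19* was at 1876 and 2106 counts in *Arid1a* KO tumors against 691 and 624 in WT tumors, a log2 difference of 1.40. *Krt8* (2038 and 2308 against 1006 and 869) had a log2 difference of 1.02 and *Krt7* (1294 and 1498 against 757 and 791) one of 0.66. The *Arid1a* KO samples lay above the WT samples for these 3 genes. *Krt18* had 5 and 11 counts against 8 and 6, a log2 difference of -0.01, and *Krt14* had 3 and 7 counts against 13 and 10. Past the same thresholds were 5 of the 10 genes (*Krt7*, *Krt8*, *Krt19*, *Nefl* and *Nefm*) beside 12.6% of all genes, from which nothing is read here because the selection used this comparison.

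The wider keratin family gives the setting of these values. Summed over the 28 type I genes, keratin mRNA was at 188 and 177 TPM in vehicle-treated WT tumors and at 74.5 and 74.0 TPM with JSH-23. In *Arid1a* KO tumors it was at 361 and 361 TPM with vehicle and at 202 and 205 TPM with JSH-23. The 25 type II genes came to 411 and 407 TPM, 164 and 162 TPM, 618 and 627 TPM and 331 and 335 TPM in the same order. *Krt14*, *Krt18* and *Krt19* made up at most 33.6% of type I keratin mRNA in JSH-23-treated WT tumors and 60.9% or more in JSH-23-treated *Arid1a* KO tumors. Nearly all of their part was *Krt19*. The type II sum exceeded the type I sum in every sample.

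**Figure D3:**
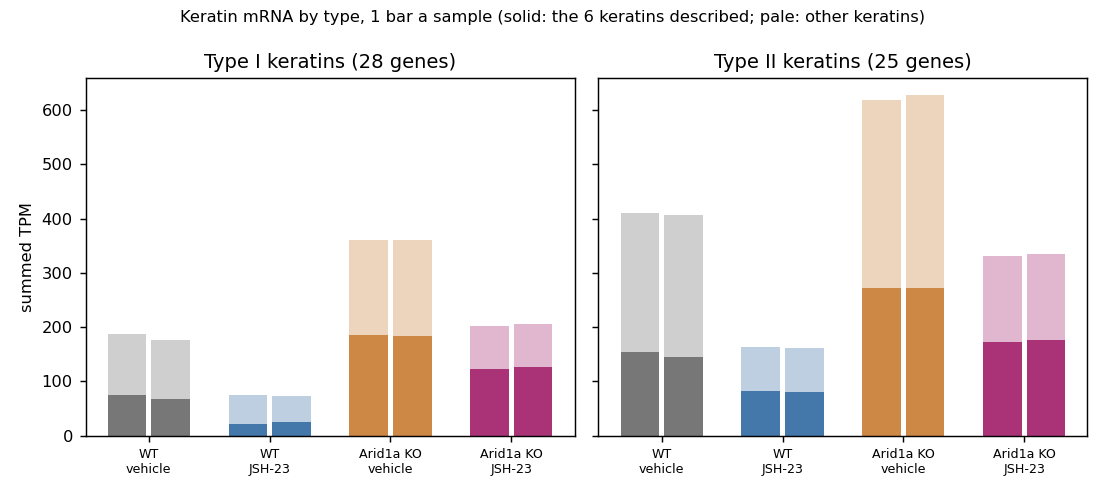
Summed TPM of the type I and type II keratin genes, with 1 bar for each sample; the solid part is *Krt14*, *Krt18* and *Krt19* (type I) or *Krt5*, *Krt7* and *Krt8* (type II), and the pale part all other keratins. Both sums were lowest in JSH-23-treated WT samples (74.0 to 74.5 TPM for type I) and highest in vehicle-treated *Arid1a* KO samples (361 TPM).

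Outside the 6 keratins there were 48 further keratin genes, of which 24 had at most 3 counts in every sample and 16 were tested. With JSH-23 in WT tumors, 12 of the 16 were called lower and 0 higher, with a median log2 fold change of -1.06 against -0.01 for all genes, of which 15.8% were called in either direction. With JSH-23 in *Arid1a* KO tumors 8 were called lower and 1 higher, with a median of -0.79 against -0.02 and 26% of all genes called. The exception was *Krt23*, named after its value was seen, at a log2 fold change of 0.67, and it was not called without TMM scaling or on the TPM scale. Under JSH-23, 8 were called higher and 0 lower in *Arid1a* KO against WT tumors, with a median of 0.57 against -0.01 and 8.71% of all genes called; on the TPM scale the median was 0.25 against -0.16. With vehicle the same thresholds gave 6 higher and 2 lower (*Krt23* and *Krt76*).

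The most abundant of these genes was *Krt4*, a type II keratin of stratified mucosa, at a mean of 128 TPM. Its log2 fold change with JSH-23 was -1.82 in WT and -1.13 in *Arid1a* KO tumors, and it was 1.19 for *Arid1a* KO against WT tumors under JSH-23. *Krt15*, a basal type I keratin with a mean of 43.0 TPM, had log2 fold changes of -1.87, -1.003 and 1.85 in the same comparisons, all called. *Krt6a*, a keratin of stressed epithelium with a mean of 33.6 TPM, had -1.63, -0.23 and 1.68, and its change in *Arid1a* KO tumors was not called. Of 7 markers of keratinised skin, *Lor*, *Ivl*, *Flg* and *Dsg1a* had 0 counts in every sample. The others were counted in every sample, *Sbsn* with 318 to 435 counts, *Krt10* with 33 to 69 and *Krt1* with 5 to 17.

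**Figure D4:**
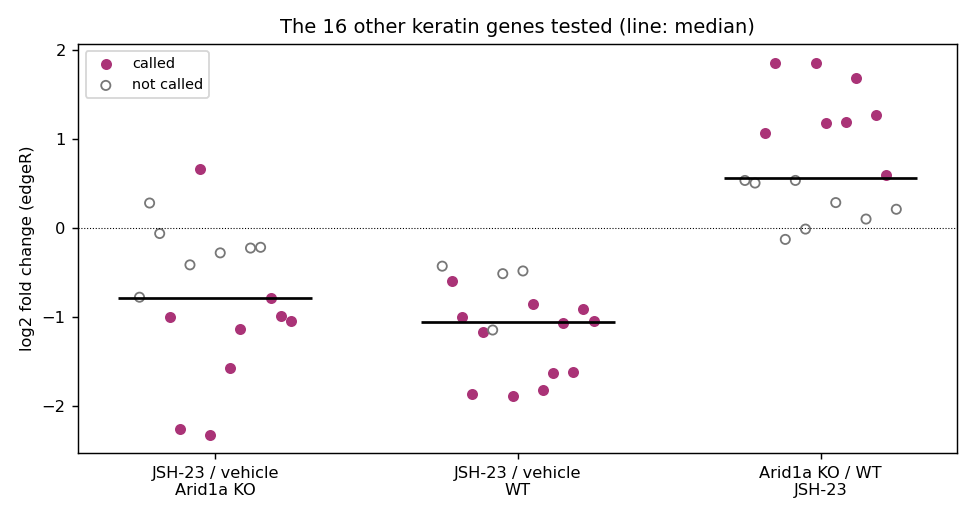
Log2 fold change (edgeR) of the 16 other keratin genes tested in 3 comparisons; each dot is a gene, filled where it was called, and the line is the median. Medians were -0.79 and -1.06 for JSH-23 in *Arid1a* KO and WT tumors and 0.57 between the genotypes under JSH-23.

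Among 12 other intermediate filament genes, 9 were tested. *Vim*, which encodes vimentin, the filament of mesenchymal cells, was the most abundant at a mean of 1463 TPM, far above any keratin. It was called higher with JSH-23 in *Arid1a* KO (log2 fold change 0.87) and in WT tumors (0.63) and lower in *Arid1a* KO against WT tumors under JSH-23 (-0.85), the reverse sign of *Krt8*, *Krt7* and *Krt19* in each. *Gfap*, the astrocyte and Schwann cell filament gene, was called lower with JSH-23 in both genotypes (-1.46 in *Arid1a* KO and -2.30 in WT tumors) at a mean of 0.35 TPM. In *Arid1a* KO tumors it had 11 and 25 counts with vehicle and 6 and 7 with JSH-23. In WT tumors it had 14 and 16 counts against 3 and 3. The filter kept *Gfap* through the vehicle samples, so nothing is read from these calls. *Prph*, which encodes peripherin, a filament of peripheral neurons, was called higher in *Arid1a* KO against WT tumors under JSH-23 (1.98). It had 27 and 19 counts against 0 and 10, where the 10 is WT sample 2. The filter kept *Prph* through the *Arid1a* KO samples, so nothing is read from this call either. On the TPM scale *Prph* was not called in that comparison, nor *Vim* and *Gfap* with JSH-23 in WT tumors. *Lmna* (306 TPM) and *Synm* (97.3 TPM), which encode lamin A/C and synemin, were called in none of the 3 tested comparisons.

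Of 16 genes whose proteins anchor or link keratin filaments, 12 were tested. With JSH-23 in *Arid1a* KO tumors 4 were called lower (*Plec*, *Evpl*, *Pkp3* and *Eppk1*, with log2 fold changes of -0.76, -0.70, -0.76 and -0.82) and 0 higher, where 26% of all genes were called, and the 4 became 6 without TMM scaling and 5 on the TPM scale. In WT tumors 2 were called lower (*Pkp3* at -0.61 and *Eppk1* at -0.81) and 0 higher, where 15.8% of all genes were called. *Dsp*, which encodes the desmosomal plaque protein desmoplakin, was the only call between the genotypes under JSH-23, at -1.57 and a mean of 0.11 TPM. Of all genes, 8.71% were called there. *Dsp* had 6 and 5 counts in *Arid1a* KO samples against 14 and 15 in WT samples. The filter kept it through these WT samples, so nothing is read from the call. The median log2 fold changes were -0.41, -0.23 and -0.15 in these comparisons, against -0.02, -0.01 and -0.01 for all genes. *Pkp2* and *Ppl*, which encode plakophilin 2 and periplakin (144 and 111 TPM), were not called in any of them.

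The neurofilament genes were either at 0 or counted together. *Nefl*, on chromosome 14 from 68083863 to 68089095, had 0 and 0 counts in vehicle-treated WT tumors, 0 and 51 in JSH-23-treated WT tumors, 52 and 57 in vehicle-treated *Arid1a* KO tumors and 37 and 43 in JSH-23-treated *Arid1a* KO tumors. *Nefm*, 30449 bases away from 68119545 to 68125004, had 0 and 0, 0 and 60, 59 and 41, and 38 and 64 counts in the same order. *Nefh*, on chromosome 11 from 4938754 to 4948064, had 0 and 0, 0 and 6, 4 and 7, and 4 and 8 counts. The same 3 samples had 0 counts of all 3 genes, namely both vehicle-treated WT samples and WT sample 1 with JSH-23. WT sample 2 with JSH-23 had counts in the range of the *Arid1a* KO samples for each gene. Scaled by library size it lay above all of them, at 3.11 against at most 2.96 CPM for *Nefl*, 3.66 against 3.36 CPM for *Nefm* and 0.366 against 0.364 CPM for *Nefh*. At the same time, its *Arid1a* level of 156 CPM was that of a WT sample and its *Krt7*, *Krt8* and *Krt19* counts were near those of its pair.

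Where they were counted, levels were low and similar. *Nefl* ranged from 1.28 to 2.25 TPM, *Nefm* from 1.37 to 2.77 TPM and *Nefh* from 0.117 to 0.224 TPM over these 5 samples. The order with *Nefh* last held in each of the 5 samples. *Nefl* and *Nefm* overlapped in vehicle-treated *Arid1a* KO tumors, and *Nefm* was above *Nefl* in both JSH-23-treated *Arid1a* KO samples. *Nes*, on chromosome 3, had 2 to 8 counts per sample (0.0335 to 0.194 TPM) without the split seen for the neurofilament genes.

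Against the floor of 3 counts per library in WT tumors, *Nefl* was at least 16.2-fold and *Nefm* at least 15.1-fold higher in vehicle-treated *Arid1a* KO tumors, the difference on which both were selected. With JSH-23, in samples outside that vehicle comparison, the difference did not pass. *Nefl* had a log2 fold change of 0.43 (SE 0.43) and *Nefm* one of 0.54 (SE 0.42) in edgeR. No p is given, because the filter kept both genes through the *Arid1a* KO samples. With DESeq2 the SE was far larger, at 2.4 for *Nefl* and 2.48 for *Nefm*. The fold changes rest on the 2 unlike WT samples. Without WT sample 1 with JSH-23 they were -0.61 and -0.50. Without WT sample 2 the WT group was a single library at 0 counts, so that no fold change is read from that fit. With JSH-23 in *Arid1a* KO tumors the log2 differences were -0.47 for *Nefl* and -0.01 for *Nefm*, given without a test, and the sign for *Nefm* changed with 1 sample left out.

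Genes close to the neurofilament pattern were named by the correlation of log2(CPM + 1) with the mean of *Nefl* and *Nefm* over the 8 samples, among 12242 genes. They included *Gm35248* (Pearson r = 0.954), *Nkiras1* (0.943), *Lrrc57* (0.940) and *Gm31290* (0.936). This is a description over samples that share their libraries. Of 6 Schwann cell markers, 3 to 5 had a count in each sample. The markers of that list are not reported singly, so neither presence nor absence of these cells is read.

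Of 16 neuron markers, 6, 6 and 7 had a count in the 3 samples without neurofilament counts, and 10 to 15 in the other samples. The 15 that stayed under 10 CPM, *Prph* among them, summed to 30 to 52 counts in the former and 70 to 135 counts in the latter. The remaining marker, *Rbfox3*, the gene of the neuronal protein NeuN, had 928 to 1054 counts in WT and 474 to 822 counts in *Arid1a* KO samples, and with it the sum was 57.0 to 65.1 CPM in WT and 33.9 to 45.6 CPM in *Arid1a* KO samples. *Snap25*, a gene of synaptic release, had 0 and 0, 0 and 6, 12 and 5, and 4 and 9 counts in the order of groups given for *Nefl*. *Stmn2*, an axon growth gene, had 1 and 1, 1 and 6, 16 and 11, and 21 and 6 counts. Other markers of the list did not split in this way. *Mapt* had 21 and 18, 25 and 8, 28 and 44, and 28 and 22 counts in the same order. *Map2* had 3 and 7, 19 and 13, 9 and 5, and 12 and 13 counts. *Dcx*, *Syt1* and *Isl1* had at most 2 counts in any sample. Neuroendocrine markers, 12 in all, were mixed. *Chga*, *Chgb* and *Insm1* had at most 2 counts in any sample and *Syp* had 0 to 8. In contrast, *Uchl1* had 7417 to 10050 and *Ncam1* 703 to 937 counts.

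White blood cell markers were mixed. Over all 8 leukocyte markers the sum was 18.8, 19.9 and 18.4 CPM in the 3 samples without neurofilament counts, 10.4 CPM in WT sample 2 with JSH-23, at least 20.6 CPM in vehicle-treated *Arid1a* KO tumors and 12.4 and 9.56 CPM in JSH-23-treated *Arid1a* KO tumors. *Cd68*, a macrophage gene, had 98 to 127 counts in those 3 samples, 81 in WT sample 2 with JSH-23 and 153 to 378 in the *Arid1a* KO samples. The 6 markers under 10 CPM in every sample, which leave out *Cd68* and *Lyz2*, summed to 39, 43 and 39 counts in the same 3 samples and to 4 to 13 counts in the other 5. *Itgam*, which encodes CD11b, had 10 and 15 counts in vehicle-treated WT tumors, 12 and 0 in JSH-23-treated WT tumors, 0 and 0 in vehicle-treated *Arid1a* KO tumors and 1 and 0 with JSH-23. *Ptprc*, the gene of CD45, against which the cells were sorted, had 0 to 10 counts. The part of these cells in the neurofilament counts was not tested.

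**Figure D5:**
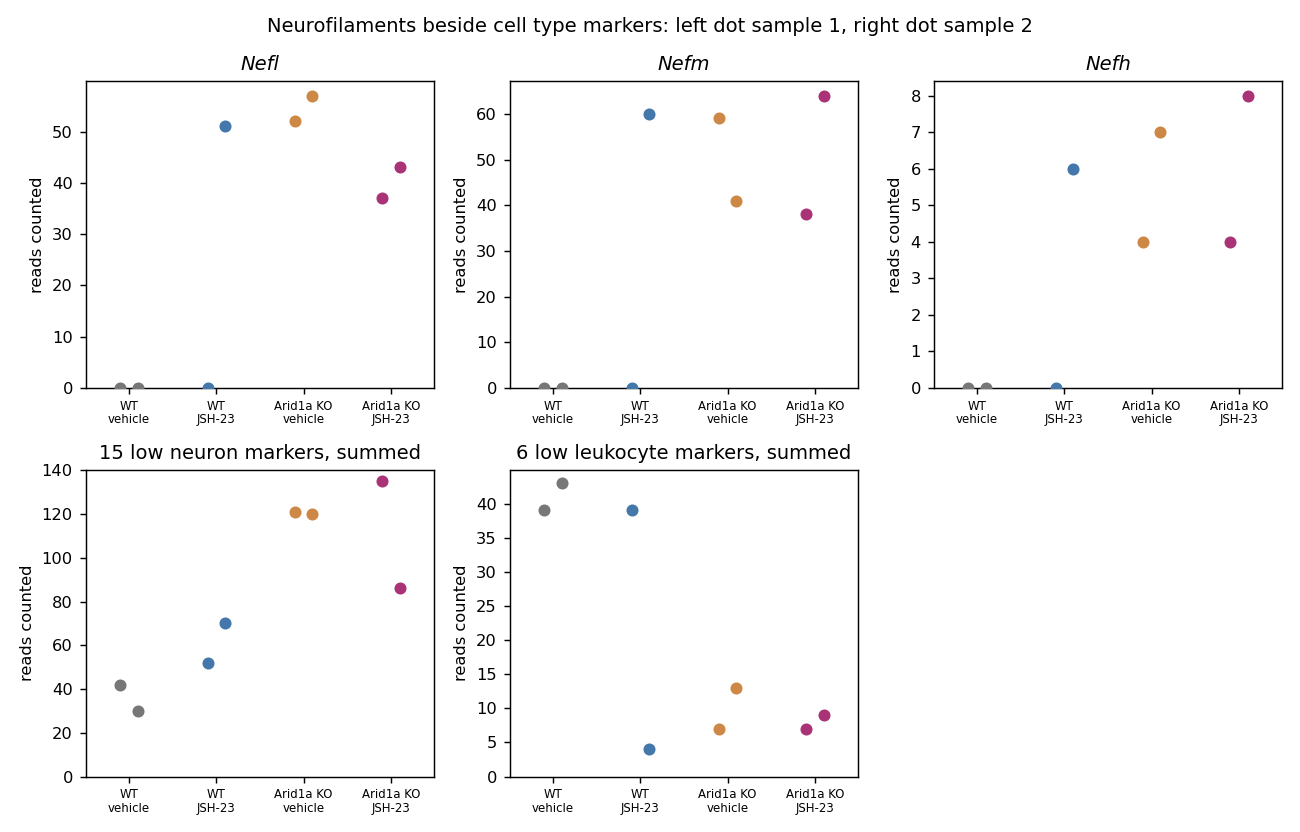
Reads counted on *Nefl*, *Nefm* and *Nefh*, and summed over 15 neuron markers and 6 leukocyte markers that stayed under 10 CPM, in each sample; the left dot of a group is sample 1 and the right dot sample 2, and axes start at 0. WT sample 2 with JSH-23 has 51 *Nefl* counts and 4 leukocyte marker counts, whereas sample 1 has 0 and 39.

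The luminal keratin pair, taken as a mean, tracked a different set, and no such list was made for *Krt8* alone. For the mean of *Krt8* and *Krt18*, a gene pair of luminal cells, the closest of the 12242 genes were *H3f3b*, a histone H3.3 gene (Pearson r = 0.991), *Hspb1* and *Hspa1a*, heat shock protein genes (0.989 and 0.985), *Selenom* (0.985) and *2810408I11Rik* (0.982), as a description over 8 samples. None of these genes encodes a filament protein.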

How the data were processed

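RNA-seq of 8 samples was analysed. The authors aligned reads to mm10 (TopHat2 in the paper's methods, HISAT2 in the submitters' processing notes) and counted them per gene by strand with HTSeq, giving the deposited counts, whole and not normalized. The deposited TPM values equal each count divided by gene length and scaled per sample; they keep no depth. Best-match counting can misplace reads of similar genes.

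Counts were filtered with filterByExpr (13921 of 39089 genes kept), scaled with TMM factors of 0.949 to 1.03, and fitted with edgeR 4.0.16 (R 4.3.3) as 4 group means over all 8 samples. The common biological coefficient of variation, edgeR's term for spread beyond counting error, was 1.61% within these pairs. Whether the 2 samples of a group came from separate animals was not given. The p-values are therefore not known to measure the spread across animals. The scripts were tested on simulated data. Samples were grouped by the labels. Alternatives were DESeq2 1.42.0, library size only, other filters, limma 3.58.1 on log2(TPM + a pseudocount of 1 or 0.1), a replicate block, only the groups compared, and leaving out each sample. All 10 genes are named; of other lists the 3 most abundant genes and calls of 5 or fewer. The members and lists were chosen with earlier results of these data known. Look-alike transcripts were searched with BLAST in GENCODE M21. Some items selected by these rules are not reported here. The series-wide TPM table was not used.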

Additional observations from a re-analysis of the deposited data

Results flagged for a closer look

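The fitted JSH-23 values of *Krt18* had opposite signs in the 2 genotypes, in a gene that the filter kept only through its highest group. Its log2 fold change was 1.14 in *Arid1a* KO tumors (5 and 11 counts with vehicle, 18 and 18 with JSH-23) and -0.65 in WT tumors (8 and 6 counts with vehicle, 5 and 4 with JSH-23), and the samples of each pair of groups did not overlap. The WT value did not pass (adjusted p = 0.447, edgeR), and the *Arid1a* KO value lost its call under 9 of 11 alternatives. The difference between the genotypes was not tested, and every value rests on 18 counts or fewer.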

How the results depend on the processing

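Of 170 keratin log2 fold changes recomputed for the 3 tested comparisons, 170 kept their direction and 156 their side of both thresholds; 13 of the exceptions were *Krt18*. The number of the 10 genes called for JSH-23 in *Arid1a* KO tumors was 1 in place of 2 with DESeq2, no filter, library size only, a minimum of 10 counts, limma on log2(TPM + 1), and the replicate block, and 1 to 1 with each sample left out; the gene lost was *Krt18*. For JSH-23 in WT tumors it was 3 in place of 5 with at least 10 counts, either limma setting and only the groups compared, and 3 to 5 with a sample left out. For *Arid1a* KO against WT it was 3 in place of 5 with vehicle under at least 10 counts and limma on log2(TPM + 0.1), and with JSH-23 it was 3 in place of 4 with DESeq2, a minimum of 10 counts and limma on log2(TPM + 1), and 3 to 5 with a sample left out. The log2 fold change of *Nefm* for JSH-23 in *Arid1a* KO tumors was 0.0065 with only the groups compared and -0.33 to 0.38 with a sample left out. With JSH-23, for *Arid1a* KO against WT, leave-one-out fits ran from -0.61 to 8.25 for *Nefl* and from -0.50 to 8.59 for *Nefm*. Both ranges were set by the 2 unlike WT samples. The 8.25 and 8.59 came from leaving out WT sample 2, so that the only WT library with JSH-23 had 0 counts. They are fitted against 0 counts and are not read as fold changes. *Krt7* in that comparison was 0.58 on log2(TPM + 1), under 1.5-fold. Replicate numbers did not pair the samples (correlation of deviations -0.007 to 0.026), and with the replicate block the count for JSH-23 in *Arid1a* KO tumors was the 1 given above. A pair of samples per group and counts under 20 limit *Krt14*, *Krt18*, *Nefh* and *Nes*.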

Other observations

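Markers of other cell types were mostly low. The 5 endothelial markers summed to 1.14 to 3.70 CPM per sample and the 4 skeletal muscle markers to 0.281 to 1.18 CPM. The 8 fibroblast markers summed to 39.8 to 71.9 CPM, mostly *Pdgfra*, a platelet-derived growth factor receptor gene with 704 to 1265 counts. *Acta2*, the smooth muscle actin gene, differed within pairs, with 3 and 83 counts in vehicle-treated WT tumors, 80 and 64 in JSH-23-treated WT tumors, 64 and 28 in vehicle-treated *Arid1a* KO tumors and 85 and 0 in JSH-23-treated *Arid1a* KO tumors. The 6 basal prostate markers summed to 233 and 237 CPM in vehicle-treated WT tumors, 159 and 164 CPM in JSH-23-treated WT tumors, 201 and 202 CPM in vehicle-treated *Arid1a* KO tumors and 145 and 152 CPM with JSH-23, most of it *Itga6*, the integrin alpha 6 gene. *Uchl1* and *Ncam1*, 2 of the 12 neuroendocrine markers, were counted in every sample (7417 to 10050 and 703 to 937 counts).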
